A study of Mus musculus with 2 samples.

Results

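The 8 miRNA hairpins Mir382, Mir134, Mir668, Mir485, Mir154, Mir496a, Mir377 and Mir487b lie within a short stretch of the imprinted Dlk1-Dio3 region of mouse chromosome 12. They were chosen by place, with the read counts of both libraries already known, so the lead of Mir382 over its neighbours is a description and not a test. Their reads are all deposited sequences of 15 to 17 nt that match one of these hairpins exactly, over their full length and on the sense strand. They are 8 of 1174 annotated miRNA genes, and 7 of them had at least 1 read. The reads came from 2 libraries of short RNA sequences from mouse embryonic stem cells of the J1 line, whose labels give the strain 129S4/SvJae and the tissue inner cell mass. The SB431542 library was made from cells given 3 µM of this inhibitor of the activin, Nodal and TGF-beta type I receptors for 24 h. The DMSO library was made from cells given the solvent alone for the same time, and both cultures grew on gelatin with Knockout Serum Replacement and LIF at 1000 U/mL. With 1 library a group, no difference below was checked against replicates, and every interval covers counting error only. In these bulk samples fewer cells and less RNA per cell cannot be told apart. No read was longer than 17 nt, so every one falls short of a full mature miRNA, and longer reads are not analysed here. The sources used here do not say whether a length filter left these sequences, so every rank, share and ratio below holds for reads of these lengths and may differ in the full libraries.

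In the Dlk1-Dio3 region the noncoding genes, Mirg among them, are transcribed from the maternal chromosome, and many miRNA hairpins are cut from their long RNA. Drosha cuts a hairpin out of the long RNA, Dicer then removes its loop, and an Argonaute protein usually keeps one arm of the duplex. Bases 2 to 8 of the kept arm, the seed, pair with target messages. In mouse induced pluripotent stem cells, silencing of this region has been linked to poorer developmental potential, and in neurons some of its miRNAs act at synapses.

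Mir382 supplied nearly every read of the group, so its hairpin is shown in full (RefSeq, GRCm38.p6, plus strand, chr12:109733771-109733846), with both annotated mature arms in capitals.
Mir382 hairpin: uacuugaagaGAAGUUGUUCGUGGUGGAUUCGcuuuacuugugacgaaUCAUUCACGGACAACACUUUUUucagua

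The mature sequences below belong to the arms that gave most of the reads, with the seed in capitals, and Mir134 is shown because it gave none.
miR-382-5p: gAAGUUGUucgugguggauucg
miR-382-3p: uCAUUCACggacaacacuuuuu
miR-154-5p: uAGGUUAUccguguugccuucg
miR-485-3p: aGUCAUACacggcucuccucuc
miR-134-5p: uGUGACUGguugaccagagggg

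RefSeq gave 14 mature sequences for the 8 hairpins, with 14 different seeds, so no pair of these annotated arms shares one. None was given for the 5p arm of Mir485 or the 3p arm of Mir487b. The 5 commonest reads of the group, as deposited, all came from the 5p arm of Mir382, and capitals mark the seed bases that each still holds.
Read 1 of 16 nt: gAAGTTGTtcgtggtg
Read 2 of 15 nt: gAAGTTGTtcgtggt
Read 3 of 17 nt: gAAGTTGTtcgtggtgg
Read 4 of 15 nt: AAGTTGTtcgtggtg
Read 5 of 16 nt: AAGTTGTtcgtggtgg

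The 5 reads are shown because they differ only in where they begin and end on one arm. Read 1 was counted 1736 times with SB431542 and 5505 times with DMSO. Read 2 was counted 407 times with SB431542 and 1467 times with DMSO, and read 3 was counted 358 times with SB431542 and 1144 times with DMSO. Reads 1 to 3 begin at the annotated first base of miR-382-5p and lack its last bases. Reads 4 and 5 begin 1 base later and were counted 122 and 32 times with SB431542, against 313 and 69 times with DMSO. All 5 keep the whole seed.

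Along the chromosome Mir382 stood far above its neighbours in both libraries. The 8 hairpins together gave 2687 reads with SB431542 and 8592 with DMSO. Mir382 had 2670 reads with SB431542, 99.4% of these (95% Clopper-Pearson interval 98.99 to 99.6), and 8549 with DMSO, 99.5% (99.3 to 99.6). By reads in both libraries together it ranked 3 among all miRNA genes.

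Mir154 gave 6 reads with SB431542 and 21 with DMSO. Mir485, whose 5p arm is known to act at synapses in rat neurons, gave 7 reads with SB431542 and 11 with DMSO. Mir487b and Mir377 gave 2 reads each with SB431542, and 5 and 4 with DMSO. Mir668 and Mir496a gave 0 reads with SB431542 and 1 read each with DMSO. Mir154 and Mir485 were thus the highest of the 7 in both libraries, at counts that differ by 1 read with SB431542.

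Mir134 gave no read in either library. Its 5p arm is known in mouse stem cells for acting on messages of pluripotency factors, Nanog among them, and in rat neurons for acting on the Limk1 message at dendritic spines. A count of 0 allows up to 3 reads, or 138 reads per 1000000 miRNA reads (RPM) with SB431542 and 38.5 RPM with DMSO. Mir382 stood at 122466 RPM with SB431542 and 109749 RPM with DMSO. The scale divides each count by the 21802 miRNA reads with SB431542 or the 77896 with DMSO.

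**Figure D1:**
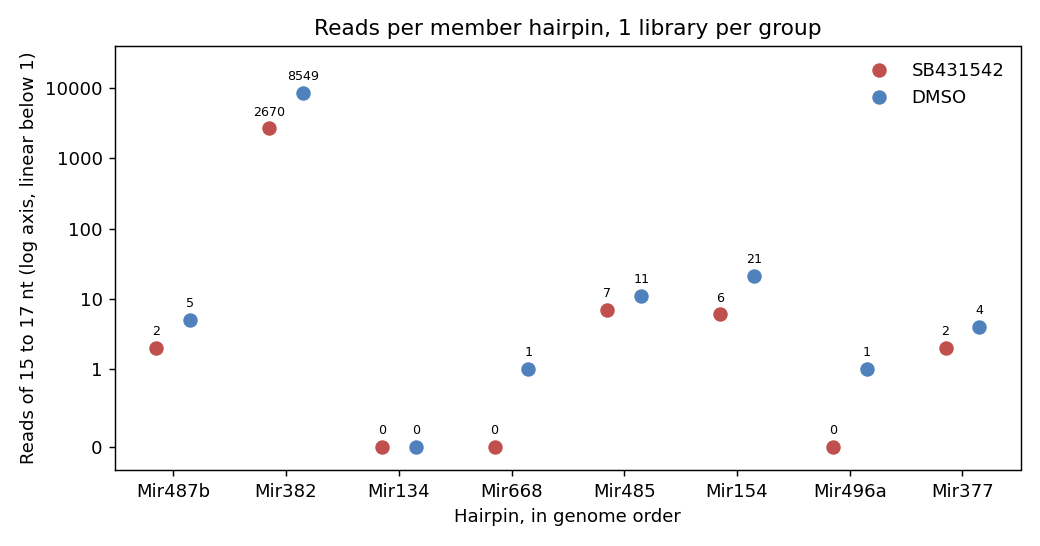
Reads of 15 to 17 nt for each hairpin (vertical axis logarithmic, linear below 1 read) in genome order, in the SB431542 and DMSO libraries, 1 library each. Mir382 stood at 2670 reads with SB431542 and 8549 with DMSO, and no other hairpin was above 7 reads with SB431542 or 21 with DMSO.

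The reads of Mir382 could be placed without doubt within the annotation. All 14 of its distinct sequences were found in 1 annotated gene only, the Mir382 gene itself. Among the other members its hairpin was most like that of Mir154, with 68.4% identical bases in a global alignment and a longest shared run of 12 bases, below the 15 needed for a match. Its likeness to Mir485 was 67.1%, with a longest shared run of 5 bases. The reads of Mir485 and Mir377 also matched Mirg, whose exons hold both hairpins, and 1 sequence of Mir377 matched Parp1 as well. No read of 15 to 17 nt was antisense to any of the 8 hairpins.

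The Mirg gene spans chr12:109729764-109749460 on the plus strand of GRCm38 and has 12 annotated transcripts. Mir487b, at chr12:109727333-109727414, begins at -2431 bases from the annotated start of Mirg and so lies outside that gene, though named with it here. Mir382 overlaps exons of 3 of the transcripts in part. Mir134 (chr12:109734139-109734209) and Mir485 (chr12:109734902-109734974), 368 and 1131 bases further on, lie wholly within exons of 3 transcripts. Mir668 (chr12:109734732-109734797), between them at 961 bases, overlaps exons of 3 transcripts in part. Mir154 (chr12:109738433-109738498) and Mir496a (chr12:109739119-109739197), 4662 and 5348 bases from Mir382, overlap no exon of Mirg. Mir377 (chr12:109740510-109740577), at 6739 bases, lies in an exon of 1 transcript. Reads of Mirg transcripts outside any hairpin and found in no other gene numbered 0 with SB431542 and 2 with DMSO.

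Within Mirg the pattern of 1 high hairpin among low ones occurred again with Mir409. Of 14 hairpins annotated inside Mirg, Mir382 and Mir409 gave 99.6% of the reads with SB431542 (99.3 to 99.7) and 99.7% with DMSO (99.6 to 99.7). Mir382 alone gave 57.2% with SB431542 (55.8 to 58.6) and 52.98% with DMSO (52.2 to 53.8). Mir409 gave 1979 reads with SB431542 and 7533 with DMSO. None of the other 12 was above 7 reads with SB431542 or 21 with DMSO.

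Mir382 had the lowest GC content of the 8 hairpins and one of the weakest predicted folds. Its minimum free energy was -29.1 kcal/mol, or -0.383 kcal/mol per base. Mir154 at -0.382 and Mir487b at -0.383 were alike per base, and the most stable was Mir668 at -0.508. Its GC content was 39.5%, next to Mir154 at 40.9%, while Mir134 had 60.6%. Mir154, which matched Mir382 closely in both features, gave 6 reads with SB431542 and 21 with DMSO. The part of these features in the lead of Mir382 was not tested.

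The 5p arm of Mir382 gave nearly all of its reads. It had 2667 reads with SB431542 and 8538 with DMSO, and the 3p arm had 3 with SB431542 and 11 with DMSO. The 5p share was 99.9% in both libraries (99.7 to 99.98 with SB431542 and 99.8 to 99.9 with DMSO). The arm that leads is thus the same in both libraries.

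The 3p reads did not begin where RefSeq places miR-382-3p. All 14 began 2 bases later, at base 51 of the hairpin, in both libraries. A shift of the first base moves the seed, which is counted from that base.

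The other members differed in the arm that held their few reads, so the sum over them describes no single hairpin. Summed over the 7, the 5p arm had 9 of 17 reads with SB431542 (52.9%, 27.8 to 77.0) and 22 of 43 with DMSO (51.2%, 35.5 to 66.7). Mir154 leaned to its 5p arm, with 6 reads against 0 for the 3p arm with SB431542 and 18 against 3 with DMSO. Mir485 leaned to its 3p arm, with 5 reads against 2 with SB431542 and 9 against 2 with DMSO. The reads of Mir487b, 2 with SB431542 and 5 with DMSO, were all 3p, as were the single reads of Mir668 and Mir496a. Mir377 had 1 read on each arm with SB431542 and 2 on each with DMSO.

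The commonest read of the lower hairpins is printed here to show where it lies on the arm, again with the seed of an annotated RefSeq arm in capitals where the read holds any of it.
Mir154 5p: tAGGTTATccgtgttgc
Mir485 3p: aGTCATACacggctctc
Mir487b 3p: aatcgtacagggtcatc
Mir377 3p: ACACAaaggcaactttt
Mir496a 3p: acatggccaatctcc
Mir668 3p: tGTCACTCggctcggcc

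Those of Mir154, Mir485 and Mir668 begin at the annotated first base and keep the seed. That of Mir154 was counted 6 times with SB431542 and 17 times with DMSO. That of Mir377 begins 3 bases inside the annotated arm and has lost part of the seed. Of the other members' reads on an annotated arm, 11 of 13 with SB431542 and 28 of 36 with DMSO began at the annotated first base (84.6%, 54.6 to 98.1, and 77.8%, 60.8 to 89.9). The single read of Mir496a, in the DMSO library, began 8 bases inside its 3p arm.

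Most miR-382-5p reads began at the annotated first base. This start held 2501 reads with SB431542, 93.8% of the arm (92.8 to 94.7), and 8116 with DMSO, 95.1% (94.6 to 95.5). A start 1 base later held 162 reads with SB431542, 6.07% (5.20 to 7.05), and 408 with DMSO, 4.78% (4.34 to 5.25). Starts 1 base earlier and 2 bases later were rare, with 3 and 1 reads with SB431542 and 5 and 9 with DMSO. Over all miRNAs, 43 arms had at least 50 reads in both libraries together. Their commonest start held a median of 96.6% of reads with SB431542 and 97.1% with DMSO, and miR-382-5p ranked 26 and 28 of 43.

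The later start made up slightly more of the arm in the SB431542 library. Reads from the annotated start had a log2 ratio of SB431542 to DMSO in RPM of 0.14 (0.07 to 0.20), and those from the next base one of 0.51 (0.23 to 0.77), and these counting intervals do not overlap, while those of the shares above overlap narrowly. With reads of 14 nt included, the later start held 7.04% of the reads with SB431542 (6.11 to 8.06) and 5.56% with DMSO (5.09 to 6.06). At 17 nt alone the difference was not seen. There the annotated start held 97.0% in each library, and the later start had 8 reads with SB431542 and 26 with DMSO. The commonest start's share moved by -1.28 percentage points in miR-382-5p, and by -20.1 to 21.6 points over the 43 arms. These extremes came from arms with far fewer reads. The lowest had 21 reads with SB431542 and 69 with DMSO, and the highest 160 and 391. By reads miR-382-5p ranked 3 of the 43, and in the arms ranked 1, 2 and 4 the share moved by 0.11, 0.01 and -0.48 points. Treatment and library cannot be told apart here.

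The 3′ ends gathered at base 16 of the mature sequence, 6 bases short of its annotated end. The last base was base 16 in 1860 reads with SB431542, 69.7% of the arm (67.96 to 71.5), and in 5823 with DMSO, 68.2% (67.2 to 69.2). It was base 15 in 15.3% of reads with SB431542 and 17.2% with DMSO, and base 17 in 14.6% with SB431542 and 14.2% with DMSO.

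Base 16 was the commonest end from the annotated start and from the next base. From the annotated start, reads ending at bases 15, 16 and 17 numbered 407, 1736 and 358 with SB431542, and 1467, 5505 and 1144 with DMSO. From 1 base later they numbered 31, 122 and 32 with SB431542, and 81, 313 and 69 with DMSO. The first count for each library is of reads of 14 nt, just below the length limit. From 2 bases later the ends at bases 15, 16 and 17 had 1, 8 and 0 reads with SB431542, and 4, 11 and 3 with DMSO. There the ends at bases 15 and 16 are reads of 13 and 14 nt, outside the length limit. Within 15 to 17 nt the commonest end from that start was base 19, with 1 of 1 read with SB431542 and 4 of 9 with DMSO. Between the annotated start and the next base the commonest length differed by 1, while the commonest last base was the same. Ends past base 17 are seen only in part, since no read was longer than 17 nt.

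**Figure D2:**
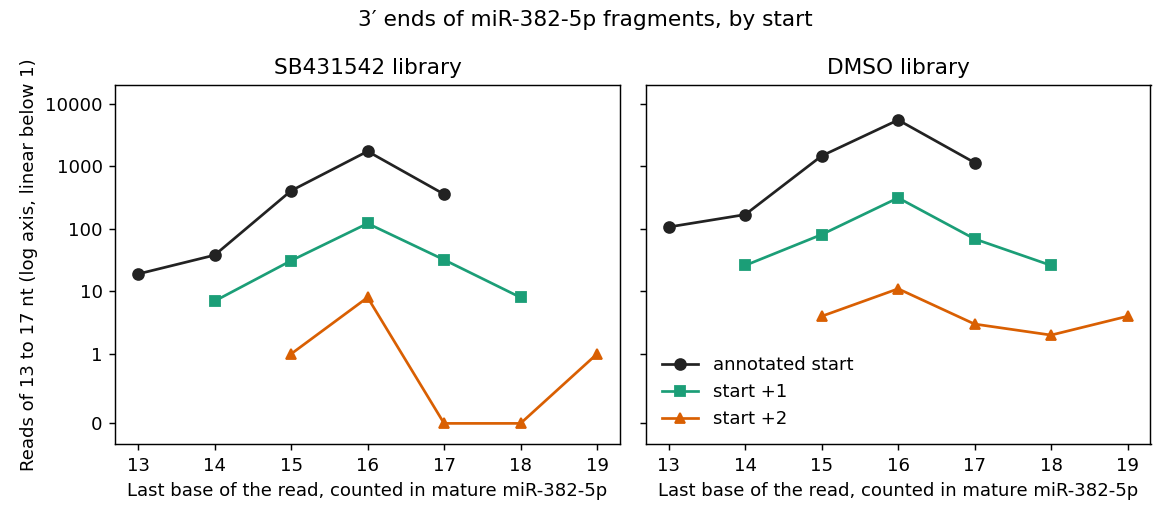
Reads of 13 to 17 nt of miR-382-5p by their last base in the mature sequence (horizontal axis) and by start (lines), in the SB431542 library at the left and the DMSO library at the right, with a logarithmic vertical axis that is linear below 1 read. With reads of 13 and 14 nt included, each line is highest at base 16, at 1736, 122 and 8 reads with SB431542 and 5505, 313 and 11 with DMSO.

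Few of the reads carried a base that the hairpin does not hold. Reads of 15 to 17 nt with 1 mismatch to Mir382 and no exact match to any transcript numbered 16 with SB431542 and 57 with DMSO, 0.596% (0.341 to 0.966) and 0.662% (0.502 to 0.857) of exact and mismatched reads together. The mismatch was at the last base in 2 of the 16 and 5 of the 57. In reads from the annotated start, the change T5G, counted from the read's first base with the hairpin's base first, had 1 read with SB431542 and 8 with DMSO, where it was the commonest. The change G4T had 3 reads with SB431542 and 5 with DMSO. The other 7 hairpins had no such read.

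The shortened reads of miR-382-5p were mainly of 16 nt. By length, 15, 16 and 17 nt held 529, 1769 and 369 reads with SB431542, and 1783, 5576 and 1179 with DMSO. The share of 16 nt was 66.3% (64.5 to 68.1) with SB431542 and 65.3% (64.3 to 66.3) with DMSO, ranks 4 and 2 from the top of the 43 arms. The medians of the 43 were 24.5% with SB431542 and 27.2% with DMSO.

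Reads of 17 nt were fewer in miR-382-5p than in most arms. They made up 13.8% of its reads in both libraries, rank 39 of 43 in each, and the medians of the arms were 53.1% with SB431542 and 52.7% with DMSO. The other 7 members had 15 of 17 reads of this length with SB431542 (88.2%, 63.6 to 98.5) and 33 of 43 with DMSO (76.7%, 61.4 to 88.2), and these intervals lie above those of miR-382-5p (12.5 to 15.2 and 13.1 to 14.6). Mir154 gave 6 of 6 reads of its 5p arm at 17 nt with SB431542 and 17 of 18 with DMSO. Lengths beyond 17 nt are not analysed here, so the shares say nothing of the whole length range.

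**Figure D3:**
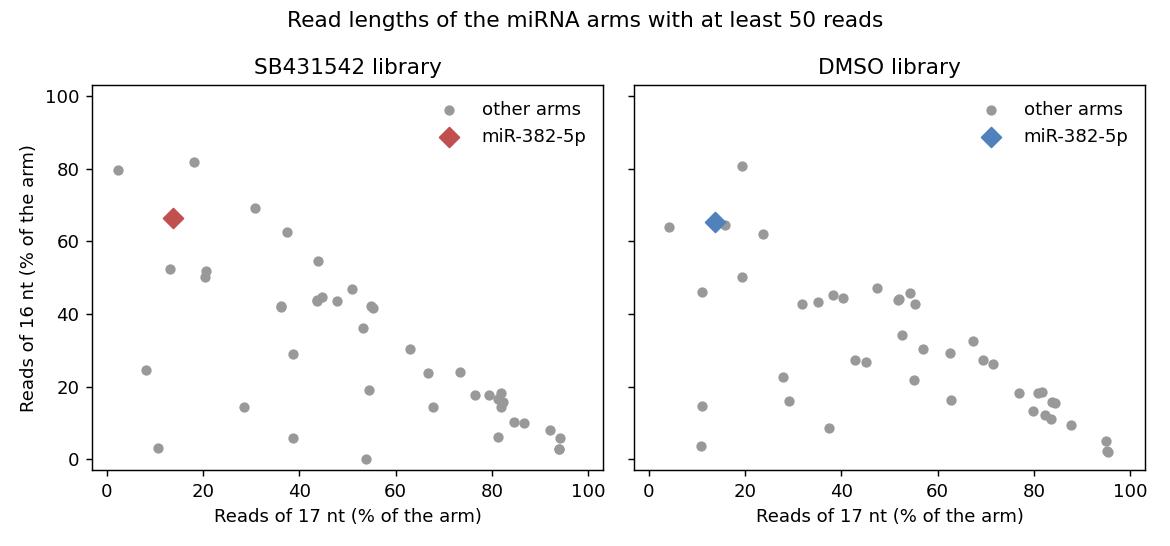
Share of reads of 16 nt against share of 17 nt for each of the 43 miRNA arms with at least 50 reads, in the SB431542 library at the left and the DMSO library at the right. The diamond, miR-382-5p, sits near the upper left in both, at 66.3% of 16 nt with SB431542 and 65.3% with DMSO, and at 13.8% of 17 nt in each.

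Just outside the length limit, the group had 78 reads of 14 nt with SB431542 and 265 with DMSO. Mir382 supplied 77 of them with SB431542 and 261 with DMSO. From the annotated start of miR-382-5p, reads of 12, 13 and 14 nt numbered 11, 19 and 38 with SB431542, and 41, 107 and 169 with DMSO. The count was lower at each step from 16 down to 12 nt, and just inside the limit, at 15 nt, it was 407 with SB431542 and 1467 with DMSO. The 13 and 14 nt sequences were found in no other annotated gene, while that of 12 nt was found in 3 genes.

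Relative to all miRNA reads the group's share was slightly larger in the SB431542 library, but on other scales its ratio was below 0, as given further on. Its share of miRNA reads was 12.3% with SB431542 (11.9 to 12.8) and 11.03% with DMSO (10.8 to 11.3). The summed reads had a log2 ratio of 0.16 in RPM (0.10 to 0.22), and Mir382 alone one of 0.16 (0.09 to 0.22). The other 7 members summed to 17 reads with SB431542 and 43 with DMSO, or 779.7 and 552.0 RPM, a log2 ratio of 0.52 whose interval, -0.40 to 1.34, includes 0. No difference in these 7 was detectable at this depth, and no ratio is given for any of them singly.

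The sign for Mir382 depended on the scale. Per reads of 15 to 17 nt, miRNA reads or not, its log2 ratio was -0.74 (-0.81 to -0.68), and it was also below 0 with edgeR TMM factors (-0.19) and DESeq2 size factors (-0.094). All miRNA reads together were 4.21% of the 15 to 17 nt reads with SB431542 and 7.87% with DMSO, and the sign differs between these totals. These scales move the log2 ratio of every arm alike, by -0.90 per reads of 15 to 17 nt, -0.35 with TMM and -0.25 with DESeq2 factors. On each of them miR-382-5p lay 0.029 above the median of the 43 arms. Neither total is the depth of a library, since the longer reads are not among the sequences analysed.

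Among all arms with at least 50 reads, 11.6% (5 of 43) were at least 2-fold apart in RPM in either direction. Of these, 3 were higher with SB431542 and 2 lower, and the higher ones include arms with a mean GC content of 93.7% and 100%. The counting interval lay above 0 in 11 of the 43 arms, miR-382-5p among them, and below 0 in 10, so an interval clear of 0 was common. The 43 arms are not all separate, since some share reads that were divided between them. Of the members only miR-382-5p was among the 43, and it was not at least 2-fold apart. Its log2 ratio of 0.16 (0.10 to 0.22) ranked 20 from the top, close to the median of 0.13. The arms nearest to it in ratio were miR-182-5p (0.17, -0.37 to 0.65), miR-290a-5p (0.14, -0.66 to 0.84) and miR-323-3p (0.18, -0.14 to 0.48). Likeness here rests on 2 libraries and a single ratio.

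**Figure D4:**
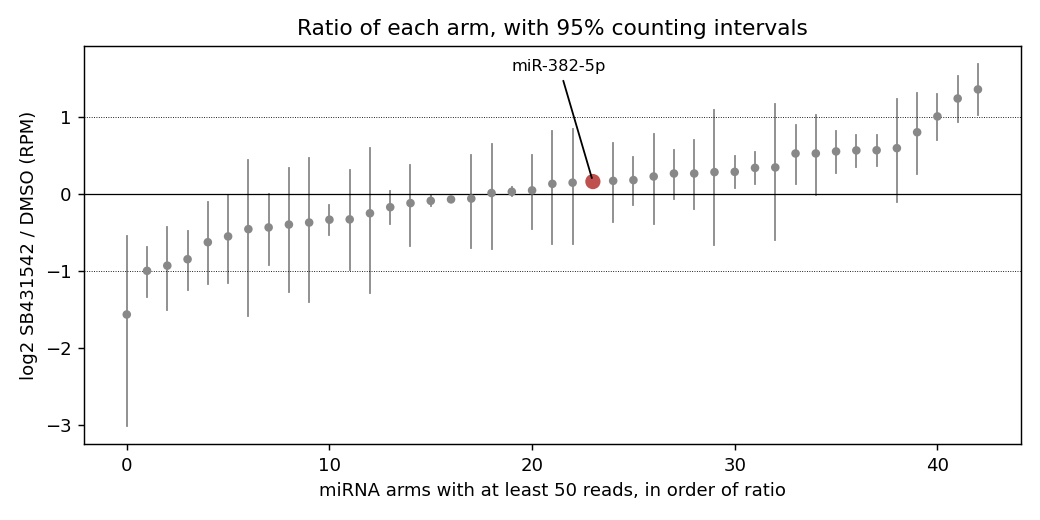
Log2 ratio of SB431542 to DMSO in RPM for the 43 miRNA arms with at least 50 reads, in order, with 95% counting intervals as vertical lines and dotted lines at 2-fold. The large point, miR-382-5p, lies at 0.16 with an interval of 0.10 to 0.22, near the middle of the arms.

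The list of 31 other Mirg and neighbouring hairpins gave about as many reads as the 8 hairpins. It had 2451 reads with SB431542 and 8907 with DMSO, from 24 of the 31, a log2 ratio in RPM of -0.02 (-0.09 to 0.04). Mir409 supplied 80.7% of these with SB431542 and 84.6% with DMSO. Mir411 came next with 257 reads with SB431542 and 728 with DMSO. The list had 5 arms among the 43, none of them 2-fold apart, with a median log2 ratio of 0.22 against 0.13 for all 43.

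The 15 hairpins antisense to Rtl1 or near Rian, Mir431 highest at 267 reads with SB431542 and 784 with DMSO, gave 414 reads with SB431542 and 1725 with DMSO, a log2 ratio of -0.22 (-0.38 to -0.07). They had 4 arms among the 43, of which 1 was at least 2-fold lower with SB431542, with a median of -0.43. The interval of the 8 members lies above those of both lists, which overlap each other, and the differences between these sums were not tested. The sum of the members rests on Mir382 and that of the 31 hairpins mostly on Mir409, at -0.09 (-0.16 to -0.02). Arm by arm the order differs. The median of the 5 arms of the 31 hairpins, 0.22, lay above the 0.16 of miR-382-5p, and Mir411 stood at 0.34 (0.12 to 0.54).

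The labelled cell type was checked by its own markers. The 7 hairpins of the miR-290 cluster, which marks mouse embryonic stem cells, gave 10514 reads with SB431542 and 39534 with DMSO. Mir293 supplied 98.6% of these with SB431542 and 98.5% with DMSO, so the sum says little of the rest of the cluster. No read came from the miR-302 and miR-367 cluster of primed pluripotent cells or from the 3 blood hairpins. The 5 fibroblast hairpins gave 9 reads with SB431542 and 55.7 with DMSO, and the 5 annotated neural hairpins gave 6 with SB431542 and 26.7 with DMSO, where reads shared between hairpins were divided. Their part in the values of the 8 hairpins was not tested.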

How the data were processed

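Per the labels, total RNA was isolated with TRIzol and 1 library was made for each group with an Illumina TruSeq RNA kit. No size selection is named there. The authors deposited, for every distinct sequence of 3 to 17 nt, the count of its reads; whether a length filter made these files is not stated. For adapter removal, filtering and alignment the sources used here give nothing. The submitters' processing notes name the build mm9, whose coordinates were not used. The files held 645925 reads with SB431542 and 1190074 with DMSO, of which 517535 and 990296 had 15 to 17 nt.

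Sequences were matched exactly to the GENCODE M21 transcripts (GRCm38) on both strands. Genes of the miRNA class with a symbol beginning Mir counted as miRNA genes. No transcript matched 78.9% of the 15 to 17 nt reads with SB431542 and 76.4% with DMSO. A sequence was left out if another small RNA class or over 5 further genes held it, and one in several hairpins was divided equally. A hairpin was split at its middle into 5p and 3p arms. Mature positions and sequences are those of RefSeq. Ratios used a pseudocount of 0.5 read and exact conditional binomial (Clopper-Pearson) 95% intervals, which cover counting error only, since reads carry no molecular identifiers. No test between groups was possible with 1 library each. The named hairpins were all 8 members, the 3 arms nearest in ratio, the 3 other hairpins of the region with most reads, and Mir293. The members, lists and rules were chosen with earlier results of these data known. Matching and intervals were tested on simulated data. Python 3.11.15, numpy 2.4.6, scipy 1.17.1, pandas 2.3.3, matplotlib 3.10.9, Biopython 1.88, RNAfold 2.7.2, R 4.3.3, edgeR 4.0.16 and DESeq2 1.42.0 were used, edgeR and DESeq2 for scaling factors alone.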

Additional observations from a re-analysis of the deposited data

How the results depend on the processing

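No paired analysis was possible because each group had 1 library. Of 107 values listed under 18 settings, 75 stayed within the counting interval of the value reported and 32 moved outside it. Some of the 75 could not move, so their number does not measure robustness. The minimum of reads does not enter the ratio of Mir382, which was carried over there. Thinning the DMSO library leaves the SB431542 shares as they were. Leaving out sequences of several miRNA genes takes no member read away. The cause of a move was not tested except where the setting fixes it. For the summed members and for Mir382, the log2 ratio was -0.19 and -0.19 with edgeR TMM factors, -0.092 and -0.094 with DESeq2 size factors, -0.80 and -0.80 per read of any length, -0.74 and -0.74 with reads of 15 to 17 nt as the total, -0.012 and -0.014 with the miRNA total without its 5 largest arms, 0.085 and 0.083 with no sequence set aside, and -0.013 and 0.36 for distinct sequences. For reads of 17 nt alone Mir382 stood at 0.094. The 7 other members stood at -0.43 per read of any length.

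The shares that follow are of the SB431542 and DMSO libraries. Mir382 was 96.1% with SB431542 and 97.3% with DMSO of member reads at 17 nt alone, and 52.6% and 40.6% of distinct sequences. The 5p share of Mir382 was 100% and 99.7% at 17 nt alone, and 90.0% and 76.9% of distinct sequences. The annotated start of miR-382-5p held 92.5% and 94.2% from 14 nt, 97.9% and 98.4% from 16 nt, and 97.0% and 97.0% at 17 nt alone. Reads of 17 nt were 17.8% and 17.9% of member reads from 16 nt, which leaves out the 15 nt reads. A GC correction gave Mir382 a log2 ratio of 0.15, and 1 mismatch gave 0.13. Counts under 30 for each of the lower hairpins limit them to a description.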

Other observations

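Outside the lengths used above, the sequence made of the first 10 bases of miR-382-5p was counted 0 times with SB431542 and 168 times with DMSO. It ranked 3 among DMSO sequences of that length, of which there were 1121 reads with SB431542 and 3641 with DMSO. It was found in 176 annotated genes, so these reads cannot be assigned to Mir382. The first 11 bases were counted 2 times with SB431542 and 15 times with DMSO and were found in 12 genes.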
